A study of Caenorhabditis elegans with 2 samples.

Results

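Of the 3066 places that passed the authors' reproducibility threshold for LIN-40 in whole young adult worms, 488 lay on the 5 autosomes, in sequence between genes and away from every annotated protein-coding promoter. Of 3066 peaks, 2351 were autosomal, and 992 of these had their summit outside every promoter window, a stretch that begins 1000 bp before any protein-coding transcript start and ends 200 bp after it. Of those, 930 were over 300 bp from every tRNA gene, and 488 were also inside no annotated gene of any kind. They made up 20.8% of the autosomal peaks and lay in 472 distinct intervals, 385 gaps between protein-coding genes and nearest to 409 genes. Among the peaks of that list the rule used place alone, and not sequence. The list itself holds the pooled regions of highest signal, so every member has a signal of at least 100.04.

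The series is chromatin immunoprecipitation sequencing of hermaphrodite young adults of Caenorhabditis elegans, strain OP485, collected 57.25 hours after the worms were synchronized as starved first-stage larvae. A GFP-FLAG tag at the C terminus of LIN-40 was recovered with an antibody against GFP from sonicated chromatin of whole organisms, so the cell types that contribute cannot be told apart. Both samples, numbered biological replicates 3 and 4 by the labels, carried the tagged protein, and they form 1 group. Libraries of untagged or input chromatin were not analysed here. The labels call the line transgenic and stably expressing the fusion, and whether an untagged copy of lin-40 was also present is not given there. Since both samples belong to 1 group and regions of 1 pooled list are not replicates of a condition, no test was made, and each share is given with its 95% Clopper-Pearson interval, an exact interval for the error of counting alone.

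LIN-40 is one of the worm's MTA-type subunits of NuRD, a complex that remodels nucleosomes and deacetylates histones. The complex joins a chromodomain ATPase that moves nucleosomes, LET-418 or CHD-3 in the worm, with the histone deacetylase HDA-1, and the MTA subunit holds parts of it together. NuRD is best known for lowering transcription at genes that other factors have marked for it, and in other animals it is also found at enhancers, which can lie far from the start they act on.

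The sequences at some of the strongest summits are given as examples of the motifs counted below. The 201 bp centred on 6 of the 15 strongest summits are given on the plus strand of build ce11 (WBcel235), from the RefSeq sequence, with GAGAGA, CTGCGTCT and CACGTG on either strand in capitals. The first 4 hold GAGAGA on one or both strands and the fifth holds only CACGTG. The sixth, at the strongest member, holds none of the 3 motifs. These windows are not the 6 of highest signal and do not give the share of the motifs. Of the 15, those not shown near nlp-40, F40E3.3, mfb-1 and mtm-3 and the strongest near K08F11.1 hold GAGAGA. Those in the interval chrII:5543276-5544794 (signals 1055 and 762), near F58D12.3 (615) and the second near K08F11.1 (544) hold none of the 3. The windows shown lie at chrIV:2219548-2219748 near T04C4.3, chrII:12102500-12102700 near Y17G7B.17, chrV:20778350-20778550 near hif-1, chrV:6000394-6000594 near fos-1, chrIV:8949742-8949942 near tpra-1 and chrIII:4282094-4282294 near sup-26.
T04C4.3 peak: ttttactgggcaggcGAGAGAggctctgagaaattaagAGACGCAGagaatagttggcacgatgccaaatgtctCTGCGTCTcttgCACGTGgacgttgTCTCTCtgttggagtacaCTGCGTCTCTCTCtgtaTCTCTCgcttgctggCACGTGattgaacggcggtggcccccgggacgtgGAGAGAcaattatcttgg
Y17G7B.17 peak: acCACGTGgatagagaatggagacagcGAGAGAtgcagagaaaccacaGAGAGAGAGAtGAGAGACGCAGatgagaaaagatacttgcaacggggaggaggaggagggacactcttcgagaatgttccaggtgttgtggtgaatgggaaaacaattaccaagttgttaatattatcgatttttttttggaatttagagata
hif-1 peak: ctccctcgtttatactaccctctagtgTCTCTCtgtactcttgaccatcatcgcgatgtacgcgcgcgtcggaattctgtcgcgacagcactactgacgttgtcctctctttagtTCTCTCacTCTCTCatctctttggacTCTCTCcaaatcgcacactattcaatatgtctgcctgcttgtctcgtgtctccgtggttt
fos-1 peak: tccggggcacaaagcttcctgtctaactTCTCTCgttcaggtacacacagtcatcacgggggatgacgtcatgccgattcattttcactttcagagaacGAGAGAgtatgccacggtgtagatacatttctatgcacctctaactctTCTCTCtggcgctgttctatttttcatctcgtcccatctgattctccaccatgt
tpra-1 peak: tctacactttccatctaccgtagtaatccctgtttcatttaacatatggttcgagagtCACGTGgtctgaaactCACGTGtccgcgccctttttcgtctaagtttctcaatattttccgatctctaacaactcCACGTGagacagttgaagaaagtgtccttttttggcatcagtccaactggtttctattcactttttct
sup-26 peak: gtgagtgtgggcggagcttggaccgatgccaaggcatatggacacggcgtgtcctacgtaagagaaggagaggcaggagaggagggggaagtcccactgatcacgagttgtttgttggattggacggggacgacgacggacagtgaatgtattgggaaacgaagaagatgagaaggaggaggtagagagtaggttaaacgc
The window near T04C4.3 holds 6 starts of GAGAGA, 3 of CTGCGTCT and 2 of CACGTG. The window near Y17G7B.17 holds 5 starts of GAGAGA, overlapping ones counted each, with 1 of CTGCGTCT that shares bases with the GA run. The window near tpra-1 holds 3 copies of CACGTG. The sup-26 window is rich in G and A without the exact 6 letters, with 54.2% GC.

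Signal, the authors' value for each peak in units whose scale is not given in the sources used here, is used here to rank and describe peaks within a list. The strongest member, at chrIII:4281856-4282669, had a pooled signal of 1116, with 528 in replicate 3 and 593 in replicate 4. Its summit lay 1970 bp upstream of sup-26, which encodes an RNA-binding protein, and both replicates placed it far above the median of these peaks. The peak at chrIV:2219253-2219950 had a signal of 936, with 454 in replicate 3 and 483 in replicate 4, and lay 2792 bp upstream of T04C4.3.

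On chromosome V, the summit of the interval chrV:20778071-20778742 lay 1957 bp upstream of hif-1, the hypoxia-inducible transcription factor, and had a signal of 614 (272 and 343 in the replicates). The interval chrV:6000223-6000794 lay 3107 bp upstream of fos-1, which encodes a bZIP factor of the AP-1 family, with a signal of 527 (258 and 275), and its summit was at -2 bp from the start of the ncRNA gene C10F3.15. The strongest member on that chromosome, chrV:14055035-14055477, had 615 (305 and 310) and lay 2611 bp upstream of F58D12.3. In each of these cases both replicates were high, and replicate 4 was the higher.

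On chromosome I, the strongest member (842, with 402 and 447 in replicates 3 and 4) lay 1920 bp past the start of nlp-40, a neuropeptide gene of the intestine, in a short gap between nlp-40 and rcor-1. The next on that chromosome (754, with 324 and 438) lay 1173 bp past the start of F40E3.3. Another (670, with 318 and 350) lay 1566 bp upstream of mfb-1, in the gap shared with sup-17, an ADAM-type protease that acts on Notch receptors. On chromosome III a peak of signal 527 (250.5 and 273) lay 1053 bp upstream of mtm-3, a myotubularin-type phosphatase.

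Some of the strongest summits lay in sequence that occurs elsewhere in the genome, where short reads cannot always be placed. The 3 peaks near K08F11.1 on chromosome IV had signals of 566, 544 and 500.3. Repeated 31-base words filled 60.2% of the first window, 53.2% of the second and 47.4% of the third. They also filled 43.3% of the window of the peak near F40E3.3 (signal 754). The second strongest member, in the interval chrII:5543276-5544794, had signals of 481 in replicate 3 and 574 in replicate 4, with repeated words in 33.3% of its window. Its nearest protein-coding start was ins-13, an insulin-like gene, 1290 bp away. Its summit lay 24 bp upstream of sls-2.2, an SL2 spliced leader gene, and a further member with a signal of 762 shared the interval. Over all members the repeats were rare, with no repeated word in 92.6% of the windows.

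The pooled signal of the 488 peaks ran from 100.04 to 1116, with a median of 148 and quartiles of 117 and 222. The median was 164 over all 3066 peaks, 173 at the 1359 autosomal promoter peaks, 151 at the 442 peaks inside autosomal genes and 159 at the 205 intergenic peaks of X chosen by the same rule. Of the members, 204 (41.8%) were above the median of all peaks, 7 were among the 100 strongest, and the best ranked 30. The interval width had a median of 439 bp, against 395.5 bp over all peaks.

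The list was itself chosen for reproducibility and derives from both samples, so overlap of members with the replicates was largely set in advance. Regions of both replicates' full lists overlapped 484 members. For replicates 3 and 4 singly it was 485 and 487 of the 488 members, against 3054 and 3057 of all 3066 peaks. The replicate summits lay a median of 15 bp (replicate 3) and 14 bp (replicate 4) from the pooled summit. The median signal was 71.7 in replicate 3 and 84.1 in replicate 4. The ratio of replicate 4 to replicate 3 had a median of 1.15, and its log2 had an SD of 0.49 across members. Replicate 4 was higher at 340 members. Among the 3066 strongest regions of each replicate, 366 members (75%, 70.9 to 78.8) met one in both, against 80.2% of all peaks and 82.3% of autosomal promoter peaks. A further 54 met one in replicate 3 only, 56 in replicate 4 only and 12 in neither. That share rose with the pooled signal it is drawn from, from 24.6% of the 122 members of lowest signal to 100% of the 122 of highest.

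**Figure D1:**
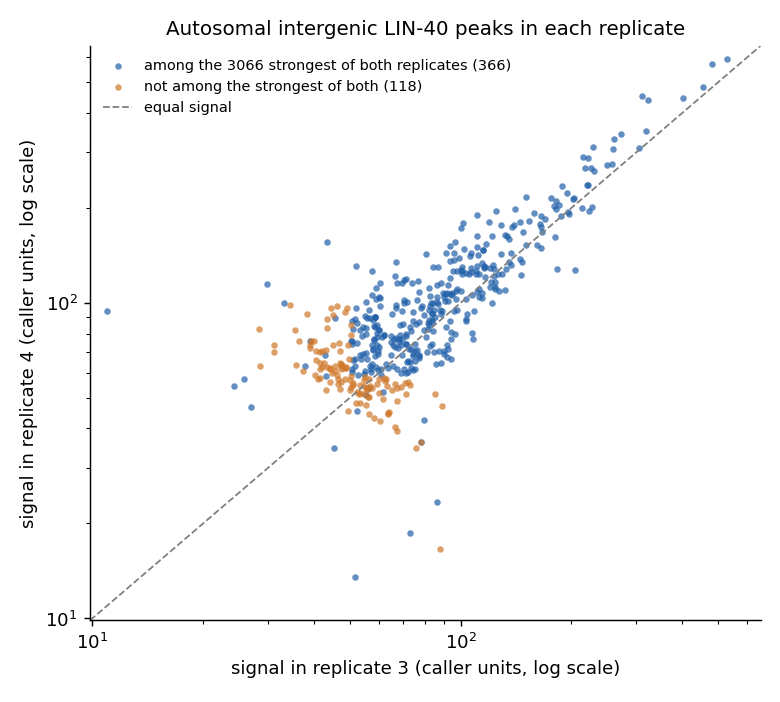
Signal of each autosomal intergenic peak in replicate 3 (horizontal, log scale, caller units) and in replicate 4 (vertical, log scale), taken from the overlapping region with the nearest summit; blue points met the 3066 strongest regions of both replicates (366) and the dashed line marks equal signal. Most points lie along the line, slightly above it, with a median ratio of 1.15, and spread most at low signal.

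These places held LIN-40 peaks about as densely as the autosomes at large. The sequence that meets the rule covered 16.4 Mb, or 19.9% of the autosomes, and held 29.7 members per Mb, against 28.5 peaks of any kind per Mb of autosome. In the full pooled list of 30000 regions, 10.2% were in the IDR list, and 9.89% of the 23780 autosomal ones. Of the 4191 pooled regions in such places, 488 (11.6%, 10.7 to 12.7) were in it, close to that background, against 16.5% at promoters and 4.45% at other autosomal places. Density differed among chromosomes: 41.95 per eligible Mb on III (104 members), 36.3 on I (91), 31.5 on II (97), 27.04 on IV (117) and 19.6 on V (79). X, with the same rule, had 39.98.

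Within every autosome the middle 50% of the chromosome held more members per eligible Mb than the arms. Over all 5, the centres had 36.7 per Mb (293 members) and the arms 23.1 (195). Chromosome V showed the widest ratio, 27.4 in the centre and 10.99 in the arms, and all peaks on V followed it with 29.4 and 11.5. All autosomal peaks were at 35.2 per Mb in centres and 21.7 in arms, in the same order.

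**Figure D2:**
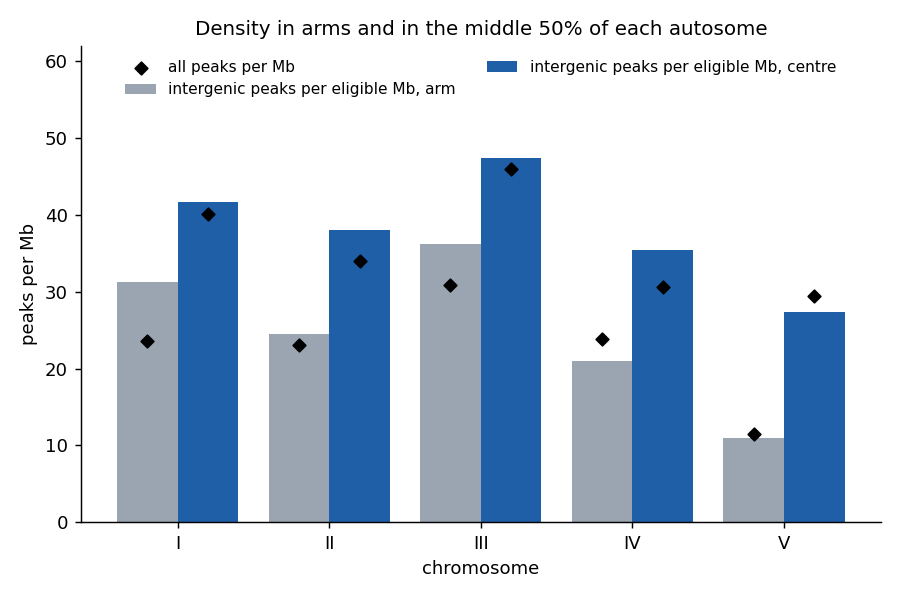
Intergenic peaks per Mb of eligible sequence (bars) in the arms and in the middle 50% of each autosome, with all peaks per Mb of sequence as diamonds. The centre bar is above the arm bar on all 5 chromosomes, and V is lowest in both.

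Density was lower far from the nearest start. The median member was 2171 bp from the nearest protein-coding start (354 to 16222 bp), and 48 were over 5000 bp away. Upstream, density was 47.5 per eligible Mb at 1000 to 1500 bp, 37.6 at 1500 to 2000 bp and 42.3 at 2000 to 3000 bp. It was 26.5 at 3000 to 5000 bp and 17.1 at 5000 to 10000 bp. Members lay upstream of the nearest start in 364 of 488 cases (74.6%, 70.5 to 78.4), while 64.6% of the eligible sequence did. Density was 34.3 per Mb upstream and 21.4 downstream. The median signal was 148 upstream and 149 downstream.

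**Figure D3:**
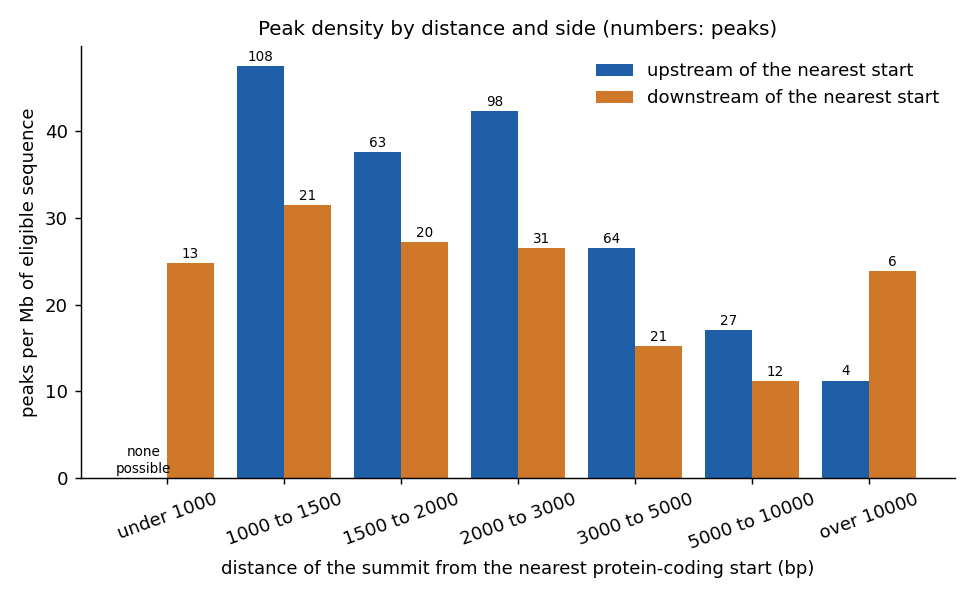
Intergenic peaks per Mb of eligible sequence by distance of the summit from the nearest protein-coding start, upstream (blue) and downstream (orange), with the number of peaks over each bar; sequence up to 1000 bp upstream is promoter by the rule and cannot hold a member. Up to 10000 bp the upstream bar is above the downstream bar in each distance class that allows both, and both fall beyond 3000 bp; the 10 peaks over 10000 bp are too few to show an order.

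Gaps between convergent genes, which hold both genes' ends and no protein-coding start but can hold non-coding starts, were poor in members. They held 39 members at 14.4 per eligible Mb, or 8.0% of the members in 16.5% of the sequence. Gaps between divergent genes held 154 members at 31.1 per Mb, and tandem gaps held 295 at 33.8. A single member lay in 303 gaps, 68 gaps held 2, 9 held 3, 3 held 4 and 2 held 5.

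GAGAGA, described below, was in 55.1% (47.7 to 62.4) of the 185 members that share a gap with another and in 54.5% (48.7 to 60.2) of the 303 alone in theirs. CTGCGTCT was in 11.4% of those that share a gap and in 25.7% of those alone. The gap of 15313 bp between the divergent genes F54F12.1 and Y39E4B.6 on chromosome III, picked after its values were seen, held 5 members with signals from 112 to 395.

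The summits had more G and C than their surroundings. The median GC of the 201 bp windows was 41.8%, against 33.3% in 80404 windows of the same length tiled over eligible autosomal sequence that meet no peak. It was 41.3% at autosomal promoter peaks and 44.3% at peaks inside genes. Members were poorer in soft-masked (repeat) bases, with a median of 19.9% of the window against 40.3%. They were also richer in unique sequence: 92.6% of them had no repeated 31-base word, against 69.5% of the tiled windows. Neither trait was particular to the members. No repeated word was found in 91.5% of promoter peaks, 90.05% of peaks inside genes and 95.6% of intergenic X peaks. Their soft-masked medians were 25.9%, 16.9% and 18.4%. Peaks near tRNA genes differed, with no repeated word in only 6.45%. Whether placing of reads in repeats has a part in the differences from tiled windows was not tested.

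The short word GAGAGA or its reverse complement was frequent at these summits. Of 2080 6-base words, counted with their reverse complements, GAGAGA differed most between member windows and tiled windows. It occurred in 267 of 488 member windows (54.7%, 50.2 to 59.2) and in 10.1% of tiled windows. Windows 1500 bp to either side of the members held it in 11.8%. The share was 51.1% (46.4 to 55.9) at peaks inside genes, 36.6% (34.0 to 39.2) at promoter peaks, 33.7% (27.2 to 40.6) at intergenic X peaks and 41.3% over all peaks. The words least common at members relative to tiles were AT-rich, with AAAATT in 30.9% of members and 69.6% of tiles.

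GAGAGA was compared between windows of like GC content. In windows under 35% GC, 21.2% of 66 members held it (12.1 to 33.0) against 6.53% of tiled windows. In windows of 40 to 45% GC the shares were 58.2% (49.4 to 66.7) and 17.6%, and at 50% GC or more they were 78.1% (66.9 to 86.9) and 17.03%. In each of the 5 GC classes the interval of the members lay above the share of the tiles.

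**Figure D4:**
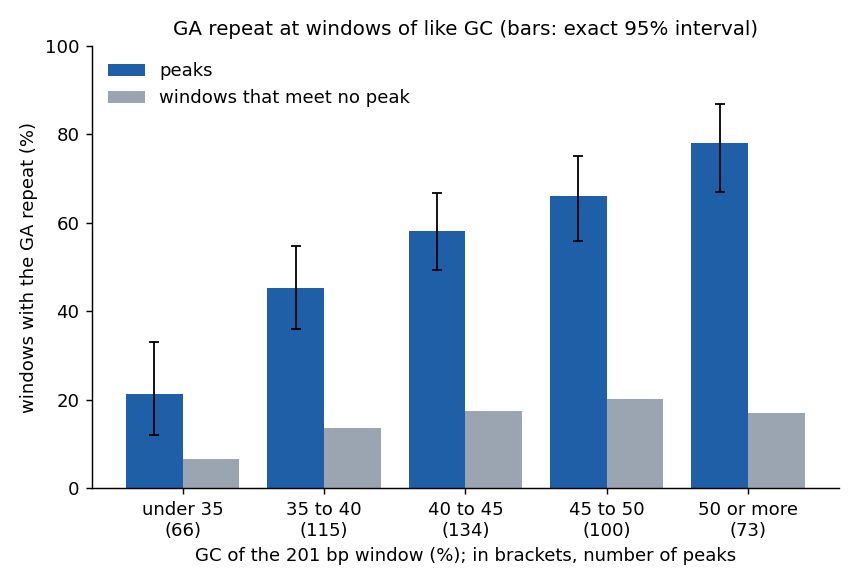
Share of 201 bp windows that hold the GA repeat, for intergenic peaks (blue, with exact 95% intervals) and for tiled windows of eligible autosomal sequence that meet no peak (grey), by GC of the window. The member share is above the tile share in every class and rises from 21.2% to 78.1%, while the tile share stays between 6.53% and 20.3%.

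Copies were more frequent around the summit than farther out, but their share was level across the bins next to it. In 50 bp bins centred at -75, -25, 25 and 75 bp it was 22.7%, 22.1%, 21.7% and 21.7% of members. It was 13.3% at -125 bp and 12.7% at 125 bp. The distance of the closest copy cannot show clustering within the 201 bp window, because only that window was searched for it. The closest copy lay a median of 34.5 bp from the summit, and within 50 bp in 182 of the 267 members. Of these, 168 had 2 or more starts and 79 had 4 or more, up to 28 in 1 window. The 79 members with 4 or more starts had a median signal of 177. The median was 145 in the 188 members with 1 to 3 starts and 142 in the 221 with none. Signal also rose with GC of the window over the 488 members (Spearman rank correlation 0.29). Whether GC has a part in the difference by number of starts was not tested. On the strand of the nearest gene, TCTCTC alone was present at 132 members, GAGAGA alone at 76 and both at 59.

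**Figure D5:**
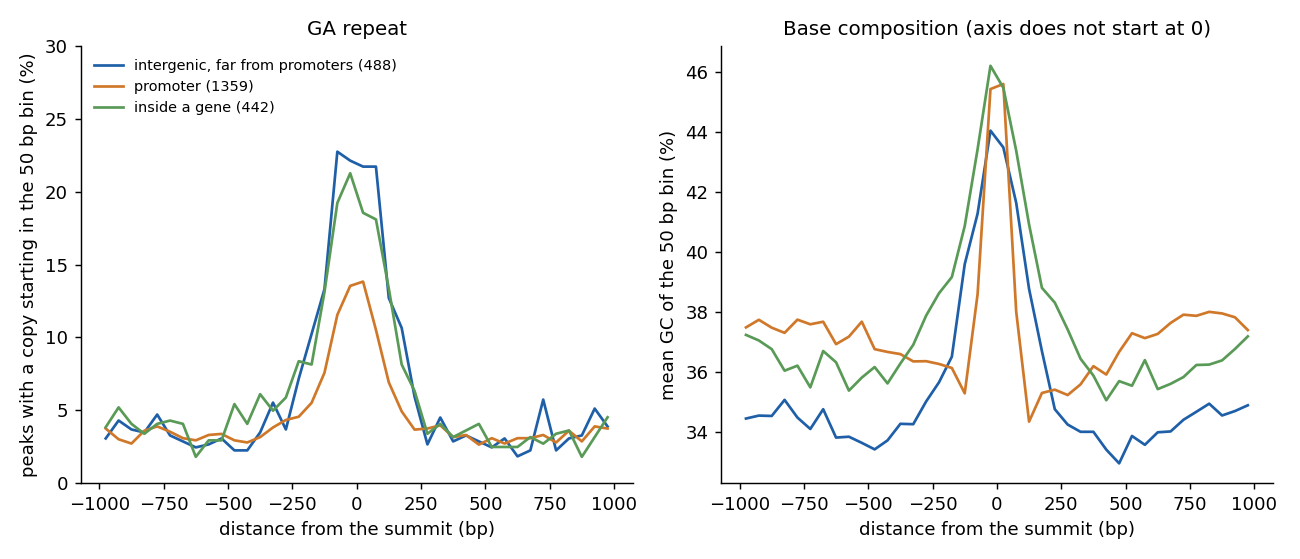
Left, share of peaks with a copy of the GA repeat starting in each 50 bp bin around the summit; right, mean GC of the bin, for intergenic peaks (blue), promoter peaks (orange) and peaks inside genes (green). The intergenic curve reaches 22.7% near the summit, against 21.3% for peaks inside genes and 13.8% for promoter peaks. The intergenic curve returns to a few percent beyond about 250 bp.

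The share varied among the members. It was 59.9% (54.7 to 65.0) of the 364 upstream of the nearest start and 39.5% (30.9 to 48.7) of the 124 downstream. By chromosome it ran from 39.2% on V (28.4 to 50.9) to 68.1% on I (57.5 to 77.5), with 54.6%, 54.8% and 54.7% on II, III and IV. It was 60.0% in arms and 51.2% in centres, with overlapping intervals. In convergent gaps it was 38.5%, in divergent gaps 61.7%. Among the 36 members with some repeated 31-base word it was 30.6% (16.3 to 48.1).

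CTGCGTCT was rarer in the genome and more frequent at members by a wider ratio. It occurred at 99 members (20.3%, 16.8 to 24.1), 1.21% of tiled windows and 1.33% of the flanks. It was at 13.98% of promoter peaks, 14.5% of peaks inside genes and 6.34% of intergenic X peaks. In 31 members a copy shared bases with a GAGAGA copy, since CTGCGTCT ends in letters of the GA run, and 83 members held both words. Its share was 32.0% among the 122 strongest members and 14.8% among the 122 weakest, and the median signal was 177 with it and 143 without. The share also rose with GC, from 6.06% of members under 35% GC to 37.0% at 50% GC or more. In tiled windows it rose too, from 0.314% under 35% GC to 4.93% at 45 to 50% GC. It was 3.48% of tiled windows at 50% GC or more.

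The other words were searched on both strands as well. CACACA was at 27.7% of members and 9.11% of tiles. The E-box of the Myc and Max type, CACGTG, was at 13.1% of members and 2.65% of tiles. The alternating word GCGCGC was at 7.79% and 1.45%. A GATA-type site, TGATAA, was at 22.95% and 17.1%. TAATTA, a homeodomain-type word, was at 1.64% of members and 10.3% of tiles. It was at 7.06% of promoter peaks, 2.94% of peaks inside genes and 6.34% of intergenic X peaks. AAAAAAA was at 28.9% and 43.6%, and ATATAT at 5.74% and 11.1%. GGTTCGA, the B box of RNA polymerase III, was at 3.07% here and at 53.2% of the peaks near tRNA genes.

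Among the 15 gene lists, 2 of the 3 lists of transcription factor genes had a larger share of the members than of eligible sequence, and homeobox genes had a smaller one. Nuclear hormone receptor genes, a large family of ligand-regulated transcription factors in the worm, were nearest to 19 members at 15 genes (3.89%, 2.36 to 6.01) and to 2.02% of eligible sequence. The strongest lay 4663 bp upstream of nhr-20 with signals of 221 and 236 in replicates 3 and 4. The next lay 2579 bp upstream of nhr-88 with 227 and 202. Both held GAGAGA, and both replicates were well above the median of the members.

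Other transcription factor genes were nearest to 16 members at 11 genes (3.28%, 1.89 to 5.27, against 1.85% of sequence). They were led by hif-1 and fos-1, described above. Homeobox genes were nearest to 3 members, or 0.61% of the members against 1.19% of sequence. The 2 strongest lay upstream of unc-39, a Six-type homeobox gene, with signals of 222 and 207.

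Several other lists had few members. Chemoreceptor genes were nearest to 5.11% of eligible sequence and to 2 members (0.41%, 0.05 to 1.47), near sri-5 and srab-24, with signals of 111 and 110. Genes listed as receptors and channels of neurons had 3 members against 3.09% of sequence, 2 of them upstream of tax-6, which encodes the catalytic subunit of calcineurin. Innate immunity genes had 1 member, near clec-91 (109), against 1.31% of sequence. F-box and MATH genes had 2, near bath-44 (signal 128) and fbxa-30 (signal 100.9), against 1.63%. Histone genes and detoxification genes had 0 members, which allows a share of up to 0.753% by the exact interval, and were nearest to 0.163% and 0.527% of the sequence.

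The remaining lists had small counts. Neuropeptide and insulin genes had 5 members (1.02%) against 1.52% of sequence. Ribosomal protein genes had 2 (0.41%, against 0.262% of sequence), near rps-28 (signal 137) and rps-25 (signal 133). Cuticle collagen genes had 1 member (0.205%, against 0.740%), near col-106, with a signal of 162. Chaperone genes had 1 (0.205%, against 0.210%), near hsp-1, which encodes a constitutive HSP70, with a signal of 293. Signalling genes had 3 (0.61%, against 0.591%), near daf-4 and sma-6, which encode TGF-beta-type receptors, and sos-1, which encodes a Ras exchange factor. Of 9 autosomal genes of NuRD and the related MEC complex, 2 were nearest to a member, which is 0.41% of the members against 0.138% of sequence. These were let-418, the Mi-2 type ATPase, with a signal of 221 (97.8 and 126 in the replicates) 3656 bp upstream, and egl-27, the other MTA gene, with 107 at 10890 bp upstream.

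Starts of non-coding RNA genes, which the rule leaves in place, lay near some members. Within 300 bp of a snoRNA start were 16 members (3.28%), in sequence that made up 0.158% of the eligible total. Of these 16, 15 lay upstream. The rule admits no summit inside a gene, snoRNA genes included, so the side and position were partly set in advance. Eligible sequence was not counted by side of the snoRNA starts. The median position of the 16 was -42 bp from the start, and their median signal was 216 (107 to 326). The strongest lay 64 bp upstream of W03C9.9 with signals of 145 and 181 in the replicates, and the next 39 bp upstream of T26A8.6 with 140 and 177. Only 4 of the 16 held GAGAGA. For ncRNA genes the share was 10.7% against 3.45% of sequence, and for piRNA genes, which are numerous, 3.28% against 9.26%. Over 1000 bp from every start of a non-coding gene other than piRNA genes and pseudogenes lay 385 members (78.9%).

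Peaks on either side of the limits of the rule had similar shares with GAGAGA. Number and median signal were lower just outside the promoter window than just inside it. The values are given with no test. Summits 800 to 1000 bp upstream of a start, inside the promoter window, numbered 65 with a median signal of 142 and GAGAGA in 63.1%. Those at 1000 to 1200 bp, just outside, numbered 41 with a median of 125 and GAGAGA in 63.4%. The 50 members of lowest signal (100.04 to 105) held GAGAGA in 52% and the 50 pooled regions just below the threshold at such places (93.7 to 99.9) in 56%. The interval of 45 members (9.22%) also met a promoter window and that of 123 members (25.2%) met a gene, while that of 334 members met neither, an interval with several members being counted for each.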

How the data were processed

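Peak lists on build ce11 deposited by the authors were the starting point: 1 list of 30000 regions for each replicate, 1 for both samples pooled, and the IDR list of 3066. Each region carries a signal from the authors' peak caller, used to rank and describe, and the deposited −log10 q-value, which was not used. Not given in the sources used here: the caller, the aligner, the signal's scale and the IDR threshold. Read depth is unknown, because the lists hold no read counts.

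Summits were placed on WBcel235 with Ensembl release 115 (Python 3.11.15, pandas 2.3.3, SciPy 1.17.1). A replicate's signal came from its overlapping region with the nearest summit. A member met a replicate's strongest regions by an overlap of at least 1 bp. Distances to starts are strand-aware. Eligible sequence is every autosomal base that meets the location rule; it was tiled in 201 bp windows that meet no IDR peak. The location rule and motif search were tested on simulated data.

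Named genes are those nearest to the 15 strongest members, to the strongest on each autosome and to the 2 strongest of each list; the others named were chosen after their values were seen. The members, lists and motifs were chosen with earlier results of these data known. Lists on ce10 were not used.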

Additional observations from a re-analysis of the deposited data

How the results depend on the processing

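No paired analysis was possible because both samples belong to 1 group. Values that stayed within the spread of the replicates, their interval or 1.5 times the count were 38 of 63. With the stronger 50% of peaks, 204 members remained at 12.4 per Mb, 99.5% were among the strongest of both replicates, the median signal was 236, GAGAGA was at 60.3% and GC was 44.8%. A promoter window of 500 and 100 bp gave 31.2 per Mb and 42.3% GC; 2000 and 200 bp gave 300 members and 24.9 per Mb. Windows at starts of every biotype gave 30.4 per Mb. Excluding only protein-coding gene bodies gave 27.5 per Mb and 42.8% GC, and thinning summits within 500 bp gave 27.6 per Mb and 42.3% GC. From 1 replicate alone, the values ranged over 467 to 476 members, 28.4 to 29.0 per Mb, median signals of 73.9 to 86.3, GAGAGA at 51.7 to 52.2% and GC of 41.8 to 42.3%. An overlap of 50% of the member lowered the share in both replicates to 59.8%. Windows of 50 bp either side gave GAGAGA at 36.5% and GC of 43.6%, and tiles 5.28% and 32.7%; 150 bp gave 61.9% and 40.9%, and tiles 14.6% and 33.2%. Flanks in place of tiles leave the members' own values as they are, and held GAGAGA in 11.8%, with 34.8% GC. Chosen after seeing the data, leaving out members with any repeated 31-base word gave GAGAGA at 56.6%, and leaving out those near non-coding starts 55.6%. The lists give no depth, so how far depth limits weak peaks is unknown.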
